A study of Homo sapiens with 6 samples.

Results

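The genes described here are 10 feedback and output genes of the ERK pathway, of 38167 genes in the count table. They are the Sprouty genes SPRY1, SPRY2 and SPRY4, the Sprouty-related genes SPRED1 and SPRED2, the dual-specificity phosphatase genes DUSP4, DUSP5 and DUSP6, and the ETS factor genes ETV4 and ETV5. They were chosen by symbol, because their transcription is known to follow ERK activity. All 10 were found, and all 10 were among the 18676 genes that passed the filter on low counts. RNA was sequenced from spheroids of Cal27, an established human line of tongue squamous carcinoma. The soft group was embedded in Matrigel (a gel of basement membrane proteins) at 3 mg/mL and the stiff group in Matrigel at 12 mg/mL. Both groups were set up by liquid overlay, collected on day 14 and hold 3 libraries each, labelled as biological replicates. Separate cultures or days are not stated for them. The p-values therefore weigh the difference only against the spread of these libraries within each group, which may be technical. Matrigel concentration changes stiffness and ligand amount together, and their parts cannot be told apart in this design.

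Growth factor receptors activate RAS, which recruits RAF kinases, which activate MEK, which activates ERK. ERK then switches on genes that damp the same pathway. Sprouty proteins act below the receptors on the way to RAF, SPRED proteins bring the RAS inhibitor neurofibromin to the membrane, and the DUSP phosphatases remove the activating phosphates from ERK itself. ETV4 and ETV5 are PEA3-group transcription factors that carry the signal on to further genes. In squamous carcinoma, receptors of the EGF family are a common source of the signal. Transcript levels of these genes are often read as a record of ERK activity, but phosphorylated ERK was not measured in these libraries.

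The promoters of SPRY4 and SPRY2 are shown side by side, because they belong to 1 family, and SPRY4 rose in stiff Matrigel while SPRY2 had the smallest difference of the 10 genes. Each sequence is the 250 bases before a RefSeq start of the gene on GRCh38.p14, read 5′ to 3′ on the gene's strand. The capitals mark GGAA, the core of ETS factor sites, on either strand (written TTCC where it lies on the other strand). The SPRY4 window lies at chr5:142324248-142324497, before an internal start of the gene, and the SPRY2 window (the most upstream of its 3 RefSeq starts) at chr13:80341127-80341376, both on the minus strand. The matching DUSP6 window (chr12:89352502-89352751, minus strand) falls within an annotated 5′ UTR of a longer GENCODE transcript, so its matches are given without its letters. Of the 250 bases of the SPRY4 window, 170 lie in a GENCODE exon of SPRY4 and 0 in a UTR of the gene, and 0 bases of the SPRY2 window lie in an exon of SPRY2.
SPRY4: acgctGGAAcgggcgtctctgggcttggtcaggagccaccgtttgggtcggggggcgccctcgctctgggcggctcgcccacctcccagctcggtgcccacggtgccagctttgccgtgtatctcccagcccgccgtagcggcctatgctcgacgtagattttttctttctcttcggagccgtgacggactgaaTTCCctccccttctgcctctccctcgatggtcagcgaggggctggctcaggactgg
SPRY2: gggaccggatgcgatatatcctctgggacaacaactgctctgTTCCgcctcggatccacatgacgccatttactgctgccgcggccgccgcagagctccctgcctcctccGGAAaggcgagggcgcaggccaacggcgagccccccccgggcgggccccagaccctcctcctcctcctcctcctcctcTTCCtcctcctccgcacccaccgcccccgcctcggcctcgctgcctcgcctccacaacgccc
The DUSP6 window held 6 GGAA matches, the SPRY4 window 2 and the SPRY2 window 3. Of 35116 windows of this length over all RefSeq starts, 92.7% held at least 1 such match, with a median of 3. The longer ETS string CGGAAG (either strand, overlapping GGAA) was found 1 time in the DUSP6 window and 0 times in those of SPRY4 and SPRY2, and in 16.5% of all windows. The cyclic AMP response half-site TGACG was found 1 time each in the SPRY4 and SPRY2 windows and in 21.2% of all windows. The AP-1 site TGANTCA (6.57% of all windows) and the full cyclic AMP response element TGACGTCA (1.65%) were found in none of these 3 windows. These are matches of letters, not measured binding. Entries were found for 6 of the 10 members, with 10 windows in all. The windows not described above held 5 and 4 GGAA matches for SPRY1, 5 and 4 for SPRED2, 4 and 4 for SPRY2 and 3 for SPRED1. A SPRY1 window (chr4:123398136-123398385) also held CGGAAG 1 time. None of SPRY1, SPRY2, SPRED1 and SPRED2 passed the test described below, and a link of these matches to the response was not tested. The members without an entry were DUSP4, DUSP5, ETV4 and ETV5.

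Among these genes, the response to the stiff gel went in opposite directions within 1 family. DUSP6 and SPRY4 rose, DUSP4, ETV5 and ETV4 fell, and the other 5 members did not pass the test. DUSP4 fell 3.41-fold and DUSP6 rose 2.14-fold, although both encode phosphatases of ERK. The test was edgeR's quasi-likelihood test over all genes with Benjamini-Hochberg adjustment, at a threshold of 0.05. By this test 49.1% of all tested genes differed between the conditions, 25.3% higher and 23.8% lower in stiff, so 5 of 10 members is close to the background. A difference that also reached 2-fold was found in 3 members (DUSP4, DUSP6 and SPRY4) and in 13.2% of all tested genes. The median log2 fold change was -0.13 over the 10 members and -0.000174 over all genes tested.

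**Figure D1:**
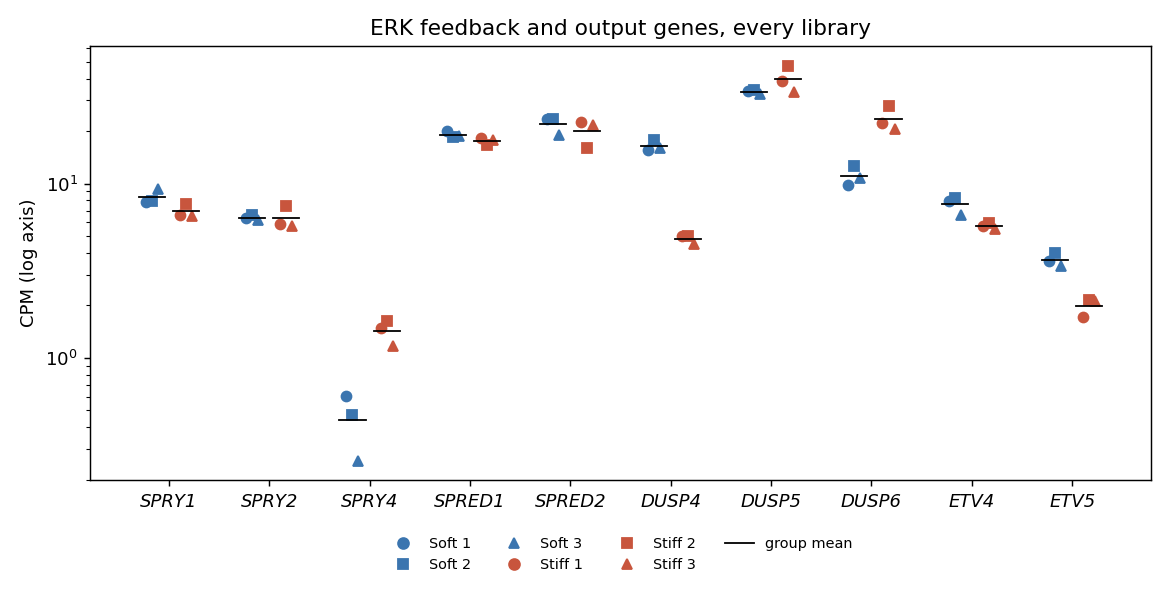
Levels of the 10 genes in each library, as CPM on a log axis; blue is soft, red is stiff, symbols give the replicate number and black lines the group means. The soft and stiff values do not overlap for DUSP4, ETV5, ETV4, SPRY1 and SPRED1, which are lower in stiff. They also do not overlap for DUSP6 and SPRY4, which are higher. Of all tested genes, 59.9% did not overlap.

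The counted fragments summed to between 30656278 and 40583044 per library. Levels are CPM, counts scaled to the effective library size. The members were modestly expressed, with 8 to 1691 fragments per library. Soft and stiff separated on principal component 1, with 75.1% of the variance. On component 2 (10.8%) stiff replicate 2 scored -35.0, against 21.5 and 18.3 for the other stiff libraries. The labelled squamous epithelial type was borne out by its markers: all 8 had at least 10 fragments in every library, and their summed TPM (the deposited length-scaled level) was 7961.1 to 8810.7 in soft and 30190.4 to 32595.5 in stiff. Of those 8 markers, 6 were called higher and 2 (EPCAM and CDH1) lower in stiff. The summed TPM of markers of other cell types was low beside that of the squamous markers. By CPM, COL1A1 (66.9 to 85.4) and CD68 (53.3 to 104) still lay above all 10 members in every library. The 6 fibroblast markers summed to 16.8 to 20.5 TPM in soft and 39.6 to 44.2 in stiff, with COL1A1 and LUM called higher and COL3A1 at 0 to 2 fragments. The 4 endothelial markers summed to at most 1.8 TPM, with VWF called higher and KDR at 0 to 2 fragments. The 4 leukocyte markers summed to 71.4 to 76.5 TPM in soft and 112.3 to 129.5 in stiff, nearly all of it CD68, a lysosomal protein gene that was called higher, while the pan-leukocyte gene PTPRC had 0 to 3 fragments. The part of these markers in the results below was not tested. In bulk RNA, fewer cells that express a gene and less RNA per cell cannot be told apart.

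Of the phosphatases, DUSP4 (Entrez 1846, chromosome 8, 29333064 to 29350684 on GRCh38.p14), which acts on MAP kinases in the nucleus, showed the largest difference among the 10 genes by its p-value. It was at 15.7, 17.8 and 16.0 CPM in soft replicates 1 to 3 and at 5.02, 4.99 and 4.49 CPM in stiff replicates 1 to 3. The groups did not overlap, and the libraries of each condition lay close together. DUSP4 fell by 1.77 on the log2 scale (SE 0.11), or 3.41-fold with a 95% interval of 2.89 to 4.02, in edgeR's quasi-likelihood test (adjusted p = 1.1e-06).

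DUSP6 (Entrez 1848, chromosome 12, 89347235 to 89352501) encodes the phosphatase that holds and inactivates ERK in the cytoplasm, and its transcript is commonly used as a reading of ERK output. It was at 9.80, 12.5 and 10.8 CPM in soft and at 22.3, 27.8 and 20.6 CPM in stiff. The groups did not overlap, and stiff replicate 2 was the highest library. DUSP6 rose 2.14-fold (95% interval 1.74 to 2.63, log2 fold change 1.09, SE 0.13, adjusted p = 0.000109 in edgeR's quasi-likelihood test). In GENCODE release 29 the gene AC024909.2 covers 40.5% of the merged exons of DUSP6 on the opposite strand. The count table has no entry under that symbol, and the strand setting of the counting is not given, so the DUSP6 count is uncertain to that extent.

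DUSP5 (Entrez 1847, chromosome 10, 110497907 to 110511533) encodes a nuclear phosphatase that acts on ERK. It was at 34.0, 34.3 and 32.6 CPM in soft and at 38.5, 47.4 and 33.5 CPM in stiff. Stiff replicate 3 lay within the soft range and stiff replicate 2 well above it, so the groups overlapped. The fold change of 1.18 had a 95% interval of 0.99 to 1.41 and did not pass (edgeR adjusted p = 0.107). It passed without stiff replicate 3 (edgeR adjusted p = 0.0213, log2 fold change 0.36) and with the replicate number as a block (adjusted p = 0.041), but not with the block and the length trend corrected (0.0509). Without stiff replicate 2 the log2 fold change was 0.10 (edgeR adjusted p = 0.257), against 0.24 with all libraries.

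Levels of different genes were compared as CPM per kb of merged exon, because the lengths behind the deposited TPM differ from merged exon lengths by 0.698 to 5.21 times among the 10 genes. On this scale DUSP6 and DUSP4 were level in soft and far apart in stiff. The ratio of DUSP6 to DUSP4 was 0.979, 1.10 and 1.05 in the soft libraries and 6.96, 8.74 and 7.19 in the stiff libraries. DUSP5 made up most of the summed level of the 3 phosphatases in both conditions, at 73.4% ± 1.76 in soft and 72.5% ± 0.732 in stiff (SD, n = 3). The share of DUSP4 was 12.97% ± 0.462 in soft and 3.22% ± 0.388 in stiff, and that of DUSP6 was 13.6% ± 1.30 in soft and 24.3% ± 0.553 in stiff (SD, n = 3). The summed level of the 3 genes was 17.5 ± 0.661 CPM per kb in soft and 21.0 ± 3.54 in stiff (SD, n = 3), and stiff replicate 2 was the highest library at 24.8. By deposited TPM the shares of DUSP4 were 8.28% and 2.02% and those of DUSP6 9.75% and 17.4%, in the same directions.

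**Figure D2:**
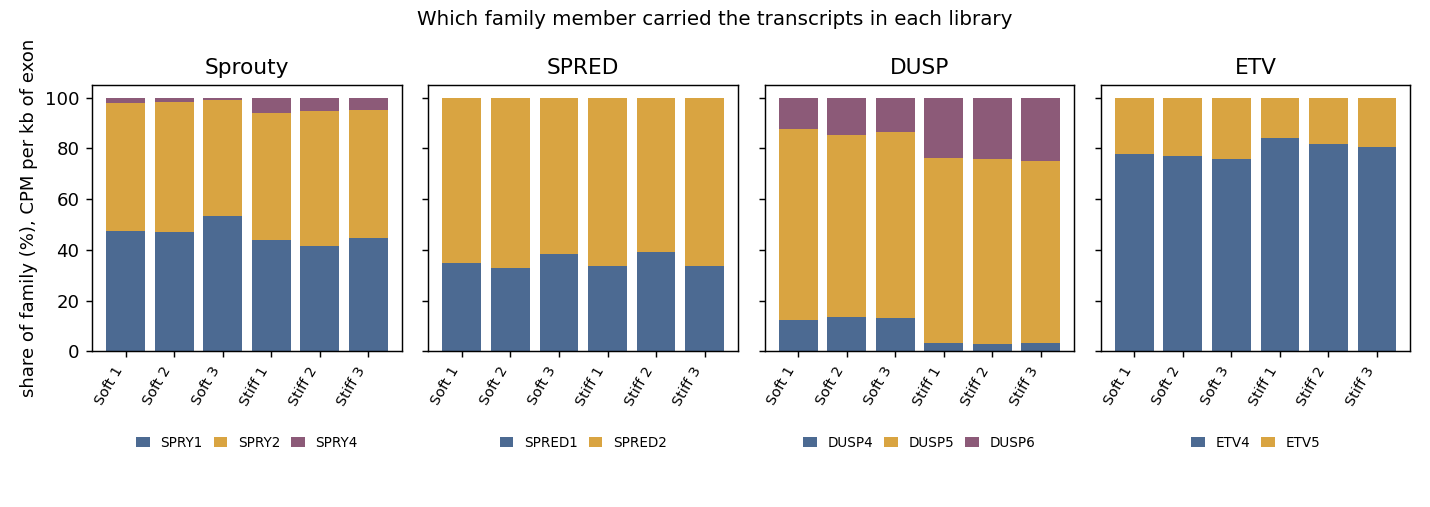
Share of each gene in the summed level of its family (percent, from CPM per kb of merged exon) in each library, for the Sprouty, SPRED, DUSP and ETV genes named in the keys. In the DUSP panel the DUSP4 share is 12.5% to 13.4% in soft and 2.77% to 3.46% in stiff, while the DUSP5 share is 71.7% to 75.3% in soft and 71.7% to 73.0% in stiff.

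SPRY4 (Entrez 81848, chromosome 5, 142310430 to 142325021) was the scarcest member. It had 25, 16 and 8 fragments in the soft libraries and 51, 58 and 42 in the stiff libraries, or 0.602, 0.469 and 0.257 CPM against 1.48, 1.63 and 1.16 CPM. Every stiff library lay above every soft library, and the relative spread was widest in soft, where the counts were lowest. SPRY4 rose 3.13-fold with a wide 95% interval of 1.91 to 5.11 (log2 fold change 1.64, SE 0.32, edgeR adjusted p = 0.0019). On log2(TPM + 1) without a filter on low values the call was lost (limma adjusted p = 0.185). Across 16 alternatives its adjusted p ranged from 1.01e-05 to 0.185. The deposited TPM of SPRY4 are 0 to 0.2, given to 1 decimal.

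SPRY1 and SPRY2, which made up most of the summed level of the Sprouty members studied here, did not pass. SPRY1 (Entrez 10252, chromosome 4, 123396795 to 123403760) was at 7.82, 7.91 and 9.36 CPM in soft and at 6.61, 7.65 and 6.54 CPM in stiff. All 3 stiff values lay below the soft values, by a narrow margin for stiff replicate 2. Its difference was 1.20-fold lower in stiff with a 95% interval from 0.995 to 1.46 (edgeR adjusted p = 0.097), and it passed without stiff replicate 2 (edgeR adjusted p = 0.0212) and with scaling by library size only (adjusted p = 0.0475). SPRY2 (Entrez 10253, chromosome 13, 80335976 to 80341126) was at 6.38, 6.62 and 6.14 CPM in soft and at 5.83, 7.46 and 5.68 CPM in stiff. Stiff replicate 2 was the highest of the 6 libraries and the other stiff libraries were the lowest. Its fold change of 0.991 had a 95% interval of 0.804 to 1.22 (edgeR adjusted p = 0.942), and its sign turned in 3 of the 6 fits with 1 library left out. The share of SPRY4 in the summed level of SPRY1, SPRY2 and SPRY4 was 1.59% ± 0.662 in soft and 5.35% ± 0.557 in stiff (SD, n = 3, CPM per kb). That sum was 4.28 ± 0.131 CPM per kb in soft and 4.05 ± 0.51 in stiff. It leaves out SPRY3, named after its values were seen, which had means of 1.77 CPM in soft and 1.20 CPM in stiff. SPRY3 did not pass (edgeR adjusted p = 0.0684).

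Neither SPRED1 nor SPRED2 passed. SPRED1 (Entrez 161742, chromosome 15, 38252836 to 38357249) was at 20.0, 18.5 and 18.7 CPM in soft and at 18.2, 16.6 and 17.8 CPM in stiff. The groups were adjacent without overlap, and the fold change was 0.919 with a 95% interval of 0.808 to 1.05 (edgeR adjusted p = 0.251). With the trend on gene length corrected its log2 fold change turned from -0.12 to 0.03. SPRED2 (Entrez 200734, chromosome 2, 65307175 to 65432599) was at 23.3, 23.6 and 18.9 CPM in soft and at 22.4, 16.1 and 21.7 CPM in stiff. Its lowest library was stiff replicate 2, and the other 2 stiff libraries lay within the soft range. The fold change of 0.913 had a 95% interval of 0.74 to 1.13 (edgeR adjusted p = 0.447), and the log2 fold change moved from -0.13 to 0.00 without stiff replicate 2. SPRED1 made up 35.3% ± 2.70 of the summed level of SPRED1 and SPRED2 in soft and 35.6% ± 3.21 in stiff (SD, n = 3, CPM per kb). The further family gene SPRED3 is not in this sum and was called higher in stiff (edgeR adjusted p = 0.0134).

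The PEA3-group factors ETV5 and ETV4 both fell. ETV5 (Entrez 2119, chromosome 3, 186046314 to 186109089) was at 3.61, 3.99 and 3.34 CPM in soft and at 1.71, 2.16 and 2.11 CPM in stiff. The groups were well separated for a gene of this level. ETV5 fell 1.83-fold (95% interval 1.41 to 2.38, log2 fold change -0.87, SE 0.17, edgeR adjusted p = 0.00194). ETV4 (Entrez 2118, chromosome 17, 43527846 to 43546340) was at 7.89, 8.29 and 6.56 CPM in soft and at 5.68, 5.97 and 5.49 CPM in stiff. Soft replicate 3 was the soft library nearest to the stiff group, and the groups did not overlap. ETV4 fell 1.33-fold (95% interval 1.09 to 1.61, log2 fold change -0.41, SE 0.13, edgeR adjusted p = 0.0212). The ETV4 call was lost without soft replicate 1 (edgeR adjusted p = 0.0783), soft replicate 2 (0.0873), stiff replicate 1 (0.0533) or stiff replicate 3 (0.0648). ETV4 made up 76.9% ± 0.966 of the summed level of both factors in soft and 82.2% ± 1.82 in stiff (SD, n = 3, CPM per kb). By deposited TPM it made up 30.9% and 38.4%, so which factor is the more abundant depends on the lengths used.

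Over all 10 genes, 7 had soft and stiff CPM that did not overlap, where 59.9% of all tested genes did. Per kb, DUSP5 stood first in both conditions at 12.9 ± 0.34 CPM per kb in soft and 15.2 ± 2.70 in stiff (SD, n = 3). In soft it was followed by SPRED2 (4.26 ± 0.512) and then by 6 genes between 2.10 and 2.39 CPM per kb, DUSP6, SPRED1, DUSP4, SPRY1, ETV4 and SPRY2, whose neighbours in this order overlapped. ETV5 (0.629 ± 0.0556) and SPRY4 (0.0674 ± 0.0265) came last, each apart from the gene before it. In stiff, DUSP6 (5.09 ± 0.818) stood second and above SPRED2 (3.89 ± 0.675) without overlap, and DUSP4 (0.666 ± 0.0408) stood in place 8 rather than 5. SPRED1, SPRY2, SPRY1 and ETV4, in this order from 2.12 to 1.58 CPM per kb in stiff, overlapped with their neighbours. This order rests on merged exon lengths. By deposited TPM, DUSP6 (6.3, 7.6 and 6.7) and DUSP4 (5.8, 6.1 and 5.6) already stood above SPRED2 (5.1, 4.8 and 3.9) in soft, and ETV5 (3.9, 4.0 and 3.5) stood above SPRED1, SPRY2, SPRY1 and ETV4 by its mean. DUSP5 came first and SPRY4 last on both scales.

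Stiff replicate 2 departed from the other stiff libraries in step with gene length. Over the 15749 tested genes with a GENCODE length, taken in 5 groups from the shortest to the longest, the median log2 difference of stiff replicate 2 from the mean of the other stiff libraries went from 0.22 to -0.21. The median log2 difference of stiff against soft went from 0.11 to -0.15 over the same groups, and from 0.06 to -0.08 without stiff replicate 2. Of the 10 genes, DUSP5 (0.40), DUSP6 (0.38) and SPRY2 (0.37) were highest in this library relative to the other stiff libraries, and SPRED2 (-0.46) and SPRED1 (-0.11) were lowest. The calls of DUSP4, DUSP6 and ETV5 were kept without stiff replicate 2, and the counts of members called there were 2 higher and 4 lower, SPRY1 being the additional gene. Over all genes 5379 of 19053 were higher there and 5224 lower, against 4722 and 4449 of 18676 with all libraries.

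**Figure D3:**
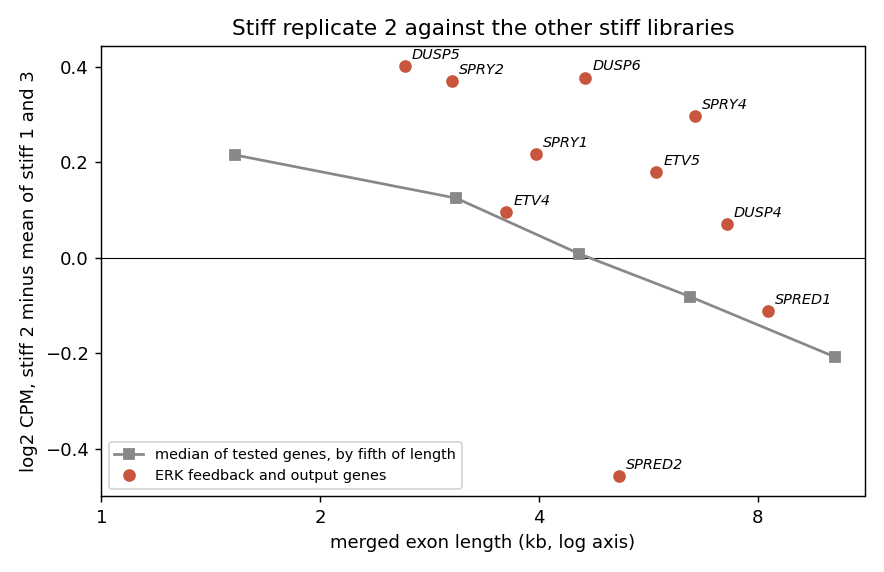
Log2 difference in CPM between stiff replicate 2 and the mean of stiff replicates 1 and 3 (vertical axis) against merged exon length in kb (log axis); red points are the 10 genes and grey squares the medians of all tested genes in 5 groups of length. The grey line falls from 0.22 to -0.21, and SPRED2 lies below it at -0.46. DUSP5, DUSP6, SPRY2, SPRY4 (0.30), SPRY1 (0.22), ETV5 (0.18) and DUSP4 (0.07) lie above it, while ETV4 and SPRED1 lie close to it.

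Other Sprouty, SPRED, PEA3 and MAP kinase phosphatase genes included called genes in both directions. Of 11 tested, 5 rose (DUSP10, DUSP1, DUSP7, DUSP9 and SPRED3), 2 fell (DUSP8 and ETV1) and 4 missed the threshold, where 25.3% of all tested genes were higher and 23.8% lower. Their median log2 fold change was 0.13. DUSP10, a phosphatase that prefers p38 and JNK, was at 34.9, 34.2 and 26.7 CPM in soft and at 67.6, 88.3 and 64.2 CPM in stiff, and rose 2.29-fold (edgeR adjusted p = 7.17e-05). DUSP7, a cytoplasmic ERK phosphatase close to DUSP6, rose 1.48-fold from 62.5 ± 1.39 to 92.3 ± 4.45 CPM (SD, n = 3, edgeR adjusted p = 9.43e-05). The immediate-early phosphatase DUSP1 rose 1.66-fold to 69.0 ± 9.70 CPM (SD, n = 3, edgeR adjusted p = 0.00246). DUSP8, a phosphatase of JNK and p38, fell 2.25-fold to 3.31 ± 0.556 CPM (SD, n = 3, edgeR adjusted p = 0.000137). On log2(TPM + 1) the DUSP8 log2 fold change was -0.77, against -1.17 in edgeR. ETV1, the remaining PEA3-group gene, is named after its values were seen. It was at 0.77 to 1.06 CPM in soft and 0.392 to 0.554 CPM in stiff and fell, as ETV4 and ETV5 did (edgeR adjusted p = 0.0239).

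Of 14 other tested genes read as ERK output, 4 rose, 6 fell and 4 missed the threshold, against 25.3% higher and 23.8% lower over all tested genes. Their median log2 fold change was -0.11. ERRFI1, a feedback inhibitor of EGF receptors, was at 38.7, 39.8 and 36.4 CPM in soft and at 85.1, 95.4 and 77.2 CPM in stiff, and rose 2.24-fold (edgeR adjusted p = 4.77e-06). PLAUR, the urokinase receptor gene, rose 1.77-fold to 26.3 ± 6.12 CPM (SD, n = 3, edgeR adjusted p = 0.00137). The cytokine gene LIF fell 1.97-fold from 31.2 ± 0.859 to 15.9 ± 0.944 CPM, and CCND1, the cyclin of G1 entry, fell 1.69-fold from 263 ± 22.7 to 156 ± 11.5 CPM (SD, n = 3, edgeR adjusted p = 8.37e-06 and 6.31e-05). The immediate-early genes EGR1 and FOS, named after their values were seen, did not pass (edgeR adjusted p = 0.999 and 0.793). EGR1 was at 172 to 234 CPM in soft and 198 to 200 CPM in stiff. For EGR1 the fold change of 1.00 had a 95% interval of 0.855 to 1.17.

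Of 14 tested genes of the RAS-ERK core, 5 rose, 3 fell and 6 missed the threshold. That count of 8 of 14 called is close to the 49.1% called over all tested genes. Their median log2 fold change was 0.11. MAPK3, which encodes ERK1, was at 47.8, 50.2 and 47.0 CPM in soft and at 87.4, 85.4 and 80.7 CPM in stiff, and rose 1.75-fold (edgeR adjusted p = 1e-05). Of the ribosomal S6 kinases, which ERK activates, RPS6KA1 rose 1.35-fold to 110 ± 5.75 CPM (edgeR adjusted p = 0.000545) and RPS6KA2 fell 2.88-fold to 21.8 ± 3.81 CPM (SD, n = 3, edgeR adjusted p = 5.31e-06). The RPS6KA1 call was lost in limma without a filter (adjusted p = 0.0605). NRAS rose 1.29-fold to 115 ± 6.73 CPM (SD, n = 3, edgeR adjusted p = 0.00144). The count of core genes called, 8, was 5 without soft replicate 1 and 5 without soft replicate 3, and 10 without stiff replicate 2. Calls over all genes moved the same way: 3746 higher and 3410 lower without soft replicate 1, and 3995 and 3714 without soft replicate 3. Without stiff replicate 2 they were 5379 and 5224, against 4722 and 4449 with all libraries. With the length trend corrected, 11 core genes were called, and 11 with the replicate block as well. Over all genes, 5034 of 15749 were higher and 3694 lower with the length trend corrected.

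Of 13 tested adaptors and regulators of RAS, 1 rose, 4 fell and 8 missed the threshold. Over all tested genes 49.1% were called. Their median log2 fold change was -0.26. RASA1, a GTPase-activating protein that switches RAS off, fell 1.58-fold from 73.3 ± 2.21 to 46.5 ± 6.31 CPM (SD, n = 3, edgeR adjusted p = 0.000379). SHOC2, a scaffold that promotes RAF activation, fell 1.36-fold to 42.6 ± 1.88 CPM (SD, n = 3, edgeR adjusted p = 0.000498). PTPN11, the phosphatase SHP2 that passes receptor signals to RAS, fell 1.40-fold to 118 ± 16.99 CPM, and LZTR1, an adaptor for RAS degradation, fell 1.29-fold to 38.2 ± 4.48 CPM (SD, n = 3, edgeR adjusted p = 0.00294 and 0.0115). The LZTR1 call was lost without soft replicate 1 (edgeR adjusted p = 0.0596) and in limma without a filter (0.0715), and its log2 fold change went from -0.36 to -0.19 with the length trend corrected. GAB1, a docking protein named after its values were seen, was the gene that rose (1.37-fold, edgeR adjusted p = 0.0162). Without stiff replicate 2, 8 of these genes were called rather than 5. Calls over all genes also went up there, from 4722 to 5379 higher and from 4449 to 5224 lower. All counts are per gene, with isoforms not separated.

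**Figure D4:**
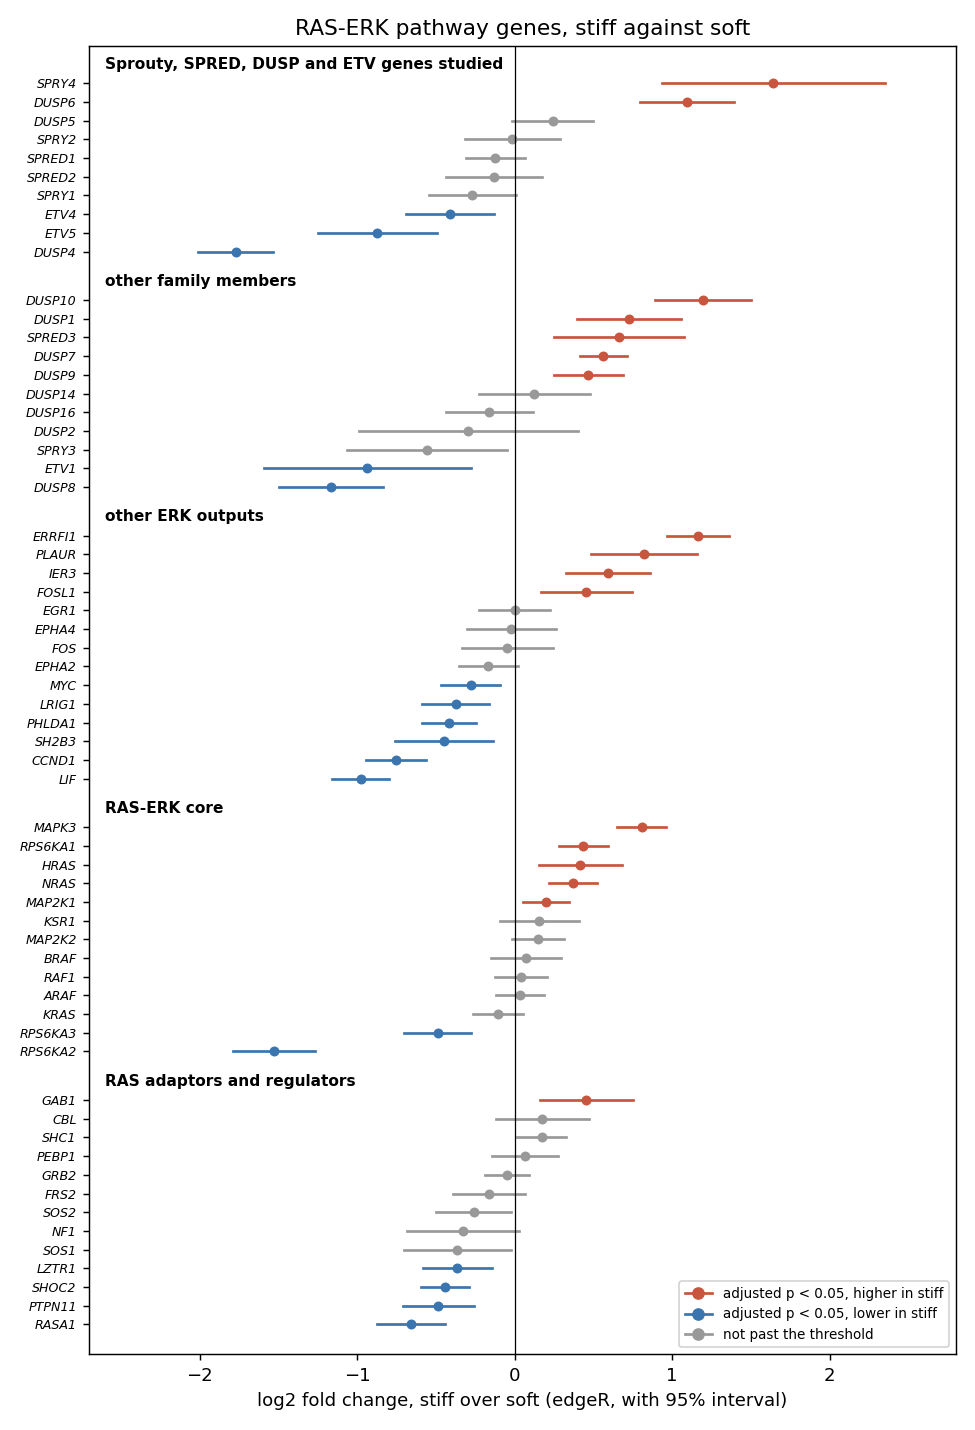
Log2 fold change of stiff over soft for the genes shown of the pathway lists (points) with its 95% interval (lines) from edgeR's quasi-likelihood fit, ordered within each list. Red and blue mark genes past the threshold; each list holds genes on both sides of 0, from DUSP4 at -1.77 to SPRY4 at 1.64 among the 10 genes studied.

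For DUSP4, DUSP6 and ETV4, the called members whose mean reached 5 CPM, the genes with the nearest profiles were found by the root mean square distance of centred log2 CPM over the 6 libraries, among 12428 genes. The profiles nearest to DUSP4 were those of HRK (distance 0.10, log2 fold change -1.82), TCIM (0.10, -1.87) and FUT3 (0.10, -1.81). For DUSP6 they were NFKBIL1 (0.06, 1.10), RAC3 (0.06, 1.16) and NUF2 (0.07, 1.02). For ETV4 they were SPATA33 (0.03, -0.44), TRMT61A (0.05, -0.45) and IFRD1 (0.05, -0.46). The genes compared also had a mean of at least 5 CPM, so ETV5 and SPRY4 were not among them. None of the members that were compared was among the 3 nearest to any of DUSP4, DUSP6 and ETV4. With 2 conditions the distance mostly reflects the size of the stiff-to-soft difference.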

How the data were processed

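Polyadenylated RNA of 6 Cal27 spheroid libraries was sequenced in read pairs, per the labels' protocols. Per the submitters' processing notes, STAR 2.6.1e and featureCounts 1.6.2 were run on hg38, and FastQC 0.11.7, cutadapt 1.9.1 and Trim Galore 0.4.2 are named too. The library kit marks strand, per the labels' protocols; for the annotation and the counting's strand setting, nothing is stated in the sources used. Deposited counts are whole fragments per gene symbol, not normalized. The deposited TPM values are given by the authors to 1 decimal, and they imply gene lengths that are a median 1.83 times the merged exon length of GENCODE release 29 over 7075 genes, scaled so that genes with 1 transcript give 1. Genes were therefore compared mainly by CPM per kb of merged exon, a scale chosen after seeing the data. TPM were used across genes for the marker sums, and beside that scale for family shares and the order of levels.

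Stiff was compared with soft by edgeR 4.0.16 (quasi-likelihood fit without covariates, TMM scaling, default filter on low expression) in R 4.3.3 on the deposited counts, with Benjamini-Hochberg adjustment over 18676 genes; the SE is the log2 fold change over the root of F, and 95% intervals use its degrees of freedom. All pairs of libraries of a condition differed beyond sampling noise (chi-square over degrees of freedom 3.26 to 30.7). The fit was tested on simulated counts, which did not carry the length trend of stiff replicate 2. Its behaviour under that trend was therefore not tested. Alternatives were DESeq2 1.42.0, other scaling and filters, a robust fit, limma 3.58.1 on log2(TPM + 1) and log2(TPM + 0.1), the replicate number as a block, each library left out and, chosen after seeing the data, an offset for the length trend in each library. Named genes were all 10 members and, in each further list, the 4 called genes with the smallest p; likeness followed a written rule. The members and lists were chosen with earlier results of these data known. Positions and promoters are from RefSeq (GRCh38.p14); 35508 of 38167 symbols matched. The values of 1 pathway gene are not reported here, and the counts include it.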

Additional observations from a re-analysis of the deposited data

How the results depend on the processing

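The calls of DUSP4, DUSP6 and ETV5 kept their direction and side of the threshold under all 18 alternatives, with log2 fold changes of -1.83 to -1.41, 0.88 to 1.19 and -0.94 to -0.71. ETV4 kept its direction (-0.51 to -0.29) and lost its call in 4 fits with 1 library left out. SPRED1 turned to 0.0334 with the length trend corrected and to 0.034 with the replicate block as well. SPRED2 ranged from -0.2329 to 0.0036 with 1 library left out, the reversal being without stiff replicate 2, and SPRY2 ranged from -0.15 to 0.06 with 3 reversals when 1 library was left out (0.0072, 0.0425 and 0.0603); the cause was not tested. SPRY4 lay below the filter of the 2 filtered limma fits. By limma on log2(TPM + 1), on log2(TPM + 0.1) and on log2(TPM + 1) without a filter, 1, 1 and 1 members were higher, and 2880, 2831 and 3138 of all genes were higher against 4722. Without a filter in limma 4 RAS-ERK core genes and 3 adaptors were called. Adaptors numbered 8 without a count filter, 9 with the replicate block and 9 with the length trend corrected and the block. Over all genes, 4983 were higher and 4840 lower without a count filter, and 5327 and 4066 with that correction and the block. With each library left out, 4 to 8 adaptors, 5 to 10 core genes, 2 to 3 higher members and 2 to 4 lower members were called. In those fits 3746 to 5379 of all genes were higher and 3410 to 5224 lower. Without TMM factors, the calls were 4181 higher and 5170 lower, with the median log2 fold change at -0.06; with the length trend corrected, 5034 of 15749 were higher and 3694 lower, with the median at 0.05. The labels name replicates but no shared day, so the numbers were not taken as pairs. Same-numbered libraries deviated together at correlations of 0.073, 0.216 and 0.05, and 2 of 6 libraries correlated best with their own number. With so few libraries this check cannot decide whether the numbers are pairs. With the replicate block, 5167 genes were higher and 5039 lower, and 3 members were higher and 3 lower. Of the values for the further named genes, 285 kept their side of the threshold and 3 lost it: LZTR1 without soft replicate 1 and in limma without a filter, and RPS6KA1 in limma without a filter (adjusted p = 0.0605). The low counts of SPRY4 limit its precision.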
